A study of Brassica rapa subsp. pekinensis with 6 samples.

Results

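The heat shock protein genes described are 4 of the 41173 *B. rapa* genes on the Br135K microarray, taken by name from the study of these samples. They were chosen with earlier results of these data known, and their Arabidopsis counterparts belong to 4 cell compartments. BrHSP21 (Bra026317) is the counterpart of Arabidopsis AT4G27670, whose product is a small heat shock protein of the plastid. BrHSP17.6II (Bra006137, counterpart AT5G12020) belongs to the class II small heat shock proteins of the cytosol, and BrHSP22 (Bra000703, counterpart AT4G10250) to those of the endoplasmic reticulum. BrHSP98.7 (Bra007816, counterpart AT2G25140, also called CLPB4) is a large ClpB/HSP100 protein of the mitochondrion. Compartments and roles are those known for the Arabidopsis counterparts. Of the 4 IDs, 0 matched the reference annotation used here, so no sequence or position of these genes is given.

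Small heat shock proteins bind unfolding proteins without using ATP and hold them in a state from which they can be refolded. Land plants carry separate families for the cytosol, plastid, mitochondrion and endoplasmic reticulum, all encoded in the nucleus. ClpB/HSP100 proteins are ATP-driven disaggregases that pull proteins out of aggregates, together with the HSP70 system. Transcription of most of these genes is switched on by heat shock factors when the temperature goes up. Arabidopsis HSP21 is known for protecting plastid proteins and for staying on after a heat treatment.

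The samples were shoots of 2 inbred lines of Chinese cabbage (*B. rapa* ssp. *pekinensis*), Kenshin, a subtropical line, and Chiifu, a temperate line on whose sequence the array probes were designed. Plants of both lines were grown for about 3 weeks at 22 °C, then held at 12 °C for 2 days, and then moved to 28 °C for 3 h, and RNA was taken after each of these steps. The labels give 1 sample for each line and temperature, 6 in all, and neither line carries an allele or transgene that the labels name. Each sample is bulk RNA pooled from several plants, in which fewer cells of a type and less RNA per cell cannot be told apart.

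The measured quantity was the probe intensity (PI), a linear brightness summarised over the probes of a gene, in which 1 gene's level is not set against another's. Low temperature (LT) denotes the ratio of 12 to 22 °C, warming that of 28 to 12 °C, and minor warming that of 28 to 22 °C. A ratio of at least 2 was taken as the cutoff, without a test, since 1 sample per line and temperature leaves no replicate error. How few samples there are sets the limit on precision. The 3 comparisons of a line share samples, so that for example a low value at 12 °C enters LT and warming alike. A PI over 500 in at least 1 sample was reached by 26948 genes, which served as the background. The median PI of all genes was 965 to 1034 in the 6 samples, and that of the reference gene BrACT2 (Bra022356, an actin) was 19307 to 22061. A feature of random sequence read 26.9 to 30.5. The 14 features for the marker genes sGFP and Bar, a fluorescent protein and an herbicide resistance gene used as transgenes, read 9.70 to 1517.

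All of the 4 genes were brightest at 28 °C in each line, which 20.2% of the background genes also were. At the earlier steps 2 of them were alike, and the other 2 each had a pattern of their own. BrHSP21 and BrHSP17.6II were several times brighter in Kenshin than in Chiifu at 22 °C, were dimmer at 12 than at 22 °C in Kenshin and brighter at 12 than at 22 °C in Chiifu, and differed by no more than 1.23-fold between the lines at 28 °C. BrHSP22 had a widening gap in favour of Kenshin along the treatment, and BrHSP98.7 had a nearly constant one.

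**Figure D1:**
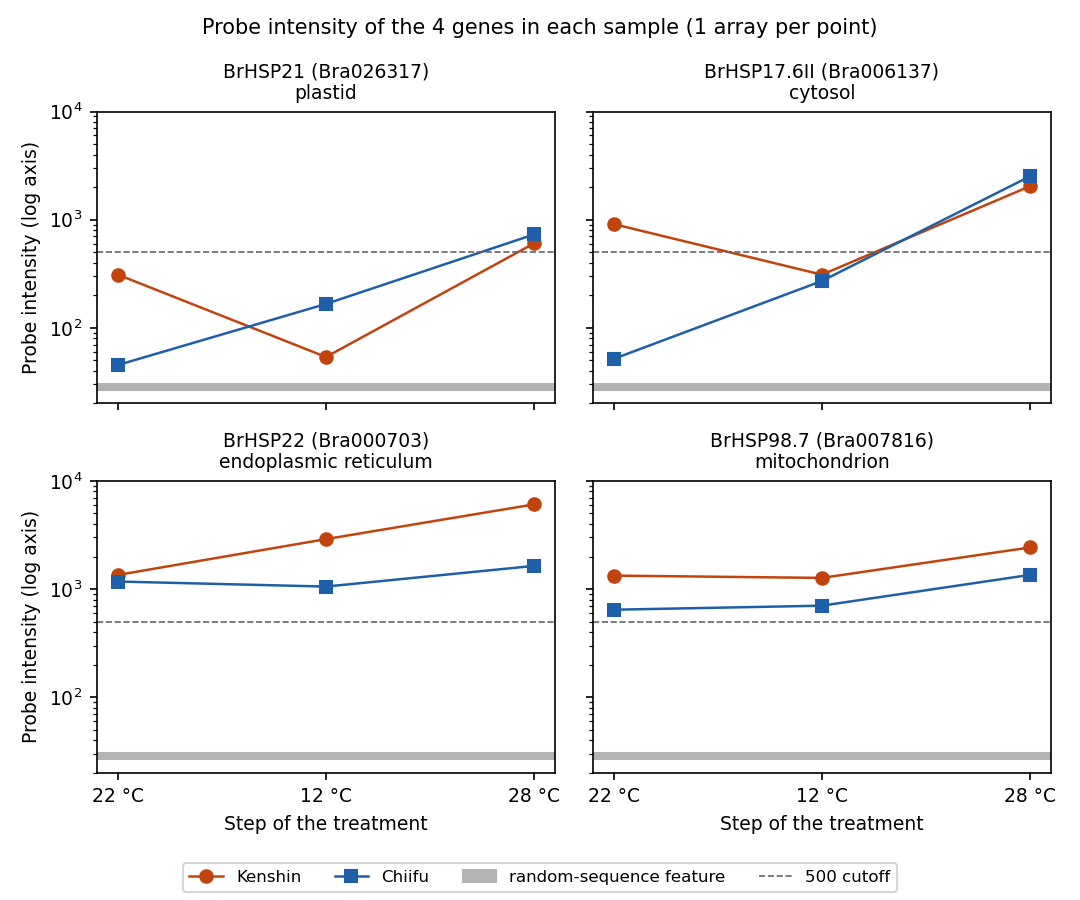
Probe intensity (log axis) of each gene at 22, 12 and 28 °C in Kenshin (circles) and Chiifu (squares), 1 sample per point and no error bars. The dashed line marks the cutoff of 500 and the grey band the random-sequence feature at 26.9 to 30.5. The lines cross for BrHSP21 and BrHSP17.6II, and Kenshin lies above Chiifu at every temperature for BrHSP22 and BrHSP98.7.

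BrHSP21, the plastid protein, had a PI of 309.7 (22 °C), 53.7 (12 °C) and 603 (28 °C) in Kenshin. In Chiifu its PI was 45.3 (22 °C), 166 (12 °C) and 729 (28 °C). Only the samples at 28 °C, 2 of the 6, lay over 500, so the gene entered the background through that temperature alone. Its highest value was 16.1 times its lowest. Every BrHSP21 value lay within the range of the marker features. The sense and antisense features numbered 6 in that set read 585 and 537 at 22 °C, 214 and 192 at 12 °C, and 1116 and 1083 at 28 °C in Kenshin. In Chiifu the same features read 234 and 211, then 154 and 137, then 255 and 266. They thus shared the directions of BrHSP21 in Kenshin and, for LT, not in Chiifu. Over all 14 marker features the median ratio in Kenshin was 1.12 for LT, and only these 2 were at least 2-fold lower. For warming in Kenshin the median was 0.96, and only these 2 were at least 2-fold higher. The part of marker signal in the BrHSP21 result was not tested.

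At the low temperature, BrHSP21 read 0.17 times its PI at 22 °C in Kenshin and 3.67 times it in Chiifu. With 50 added to every PI, which damps ratios of dim genes, these ratios were 0.29 and 2.27. Warming gave a ratio of 11.2 in Kenshin and 4.39 in Chiifu (6.29 and 3.61 with 50 added). Minor warming gave 1.95 in Kenshin, just under the cutoff, and 16.1 in Chiifu (1.82 and 8.18 with 50 added), which was rank 13 of 26948 genes in Chiifu. The large ratio in Chiifu rests on a PI at 22 °C that was close to the random feature.

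BrHSP17.6II, the cytosolic class II protein, had the widest range of the 4, with a highest PI 48.6 times its lowest. Its PI in Kenshin was 909 (22 °C), 309.8 (12 °C) and 2036 (28 °C). Its PI in Chiifu was 51.7 (22 °C), 271 (12 °C) and 2513 (28 °C). The lines were therefore far apart before the treatment and close after each of its steps, and 3 of the 6 samples lay over 500.

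The ratio of BrHSP17.6II for LT was 0.34 in Kenshin and 5.24 in Chiifu (0.38 and 3.16 with 50 added). Warming gave 6.57 in Kenshin and 9.28 in Chiifu (5.80 and 7.99 with 50 added), past the cutoff in both lines. Minor warming gave 2.24 in Kenshin and 48.6 in Chiifu (2.18 and 25.2 with 50 added). The Chiifu ratio was rank 4 of 26948 genes. The study listed this gene from these same samples for a higher level in Kenshin at 22 °C and a higher level after warming, so its values on both points are a description and no independent evidence.

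BrHSP22, the endoplasmic reticulum protein, had a PI of 1352 (22 °C), 2898 (12 °C) and 6069 (28 °C) in Kenshin. In Chiifu it had 1174 (22 °C), 1055 (12 °C) and 1638 (28 °C). All 6 samples lay over 500, and the highest PI was 5.75 times the lowest. The Kenshin samples at 12 and 28 °C were both above all Chiifu samples. BrHSP22 passed the 2-fold cutoff in Kenshin for LT (2.14), warming (2.09) and minor warming (4.49). In Chiifu its ratios were 0.90 for LT, 1.55 for warming and 1.40 for minor warming, all under the cutoff. It was the only one of the 4 genes with a 2-fold higher PI at 12 than at 22 °C in Kenshin.

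BrHSP98.7, the mitochondrial disaggregase, had a PI of 1332 (22 °C), 1269 (12 °C) and 2425 (28 °C) in Kenshin. In Chiifu it had 645 (22 °C), 702 (12 °C) and 1353 (28 °C). The span of 3.76-fold was the narrowest of the 4. Its ratios for LT were 0.95 in Kenshin and 1.09 in Chiifu. Warming gave 1.91 in Kenshin and 1.93 in Chiifu, both slightly under the cutoff, and minor warming gave 1.82 in Kenshin and 2.10 in Chiifu. The PI of BrHSP98.7 in Chiifu at 28 °C was 1.02 times that in Kenshin at 22 °C, and no replicate shows whether such neighbouring levels differ.

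**Figure D2:**
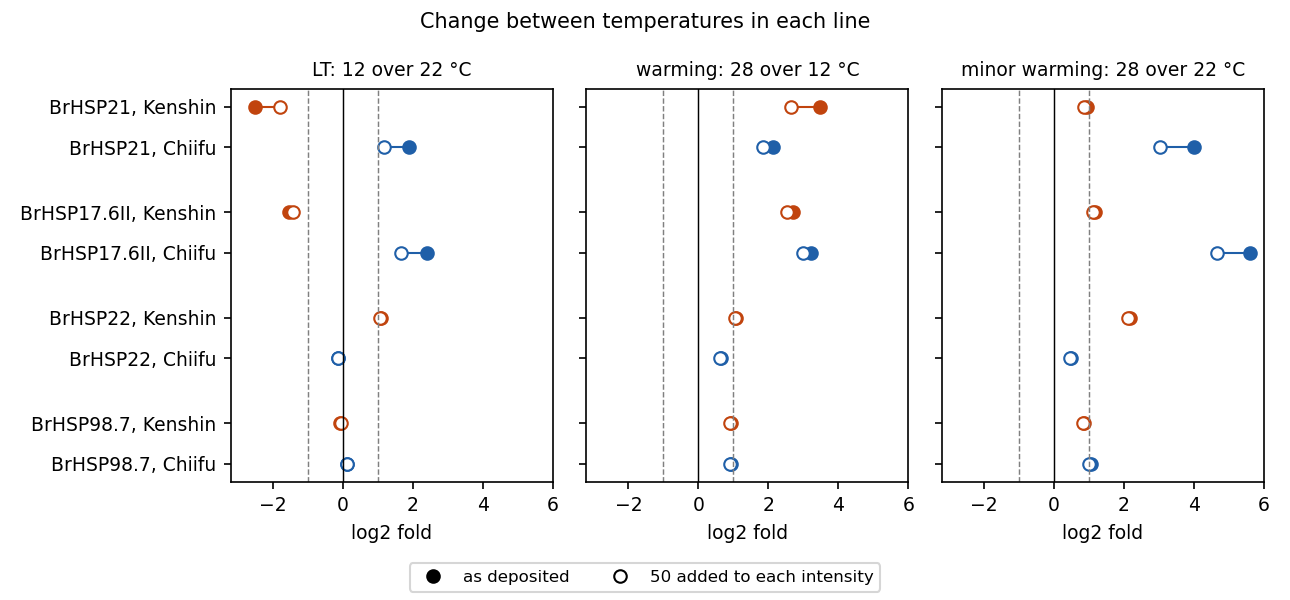
Ratio between temperatures (log2 fold, 1 sample per line and temperature) of the 4 genes in Kenshin (red) and Chiifu (blue) for LT, warming and minor warming, as deposited (filled) and with 50 added to each intensity (open). Dashed lines mark 2-fold. Adding 50 moves the ratios of BrHSP21 and BrHSP17.6II that rest on a dim sample, for example minor warming of BrHSP17.6II in Chiifu, 48.6 as deposited and 25.2 with 50 added, and leaves those of BrHSP22 and BrHSP98.7 nearly in place.

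For warming, 3 of the 4 genes passed the cutoff in Kenshin, where 7.26% of the background genes did, and 2 in Chiifu, where 6.96% did. BrHSP21 and BrHSP17.6II passed it in both lines, as did 3.1% of the background. For minor warming, 2 genes passed in Kenshin (background 6.27%) and 3 in Chiifu (background 5.69%), and BrHSP17.6II alone passed in both (background 1.57%). At a cutoff of 1.5 all 4 genes passed for warming in both lines, and the background share at that cutoff was not computed. The study named the 4 genes with these samples in view, and BrHSP21 entered the background only through its samples at 28 °C. The counts for warming and minor warming are therefore a description and no independent evidence.

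For LT, 1 gene passed upward in Kenshin (background 5.8%) and 2 in Chiifu (background 5.36%), and 0 in both lines (background 2.05%). BrHSP21 and BrHSP17.6II were at least 2-fold lower at 12 than at 22 °C in Kenshin, as were 6.99% of the background genes. Both were also at least 2-fold higher in Chiifu, and this pair of opposite changes was met by 0.271% of the background genes, 73 in number. All 4 genes had opposite directions in the lines when size is ignored. That was so for 37.3% of the background, and for BrHSP98.7 the changes were no larger than 1.09-fold.

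The lines were then compared at each temperature, Kenshin over Chiifu. At 22 °C the ratio was 6.83 for BrHSP21 and 17.58 for BrHSP17.6II (3.77 and 9.43 with 50 added). It was 2.07 for BrHSP98.7 (1.99 with 50 added) and 1.15 for BrHSP22. These are 3 of 4 genes at least 2-fold higher in Kenshin, against 8.55% of the background, and BrHSP17.6II was rank 115 of 26948. The paper listed BrHSP17.6II for a higher level in Kenshin at 22 °C. It also named BrHSP21 and BrHSP98.7 among genes with a higher basal level in Kenshin by RT-PCR. The count of 3 is therefore a description and no independent evidence.

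At 12 °C the order had changed. BrHSP22 had the highest ratio, 2.75, and was the only one past 2-fold, as were 5.18% of the background genes. BrHSP21 was at 0.32 (0.48 with 50 added) and so at least 2-fold lower in Kenshin, as were 7.16% of the background genes. BrHSP17.6II was at 1.14 and BrHSP98.7 at 1.81.

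At 28 °C BrHSP22 was at 3.70, the only ratio past 2-fold, which 10.3% of the background genes reached. BrHSP98.7 stood at 1.79, and BrHSP21 and BrHSP17.6II at 0.83 and 0.81, slightly lower in Kenshin. BrHSP22 and BrHSP98.7 were thus higher in Kenshin at all 3 temperatures, in common with 25.9% of the background genes.

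**Figure D3:**
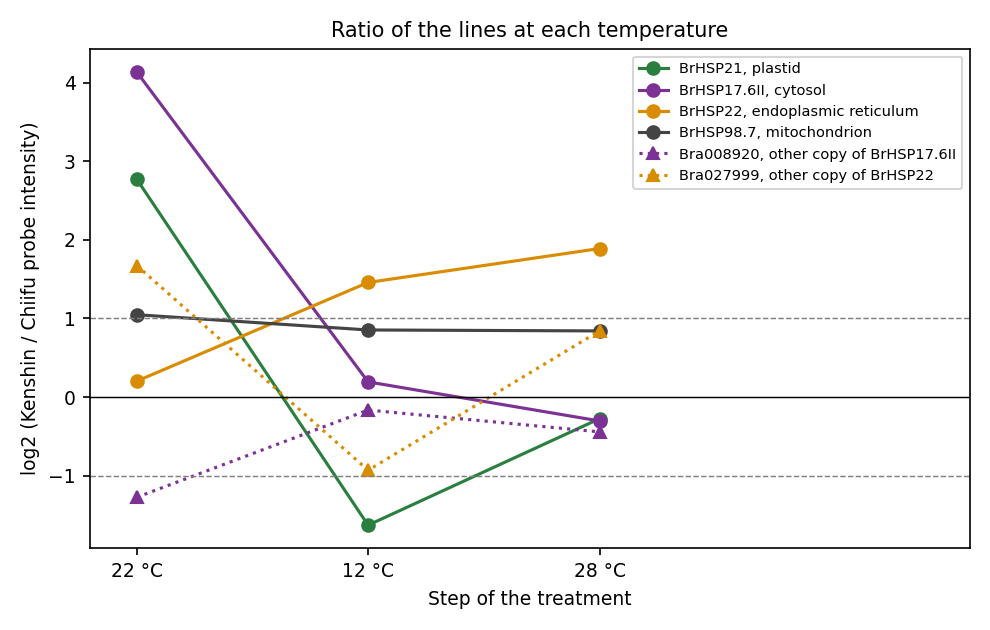
Kenshin over Chiifu probe intensity (log2, 1 sample per line and temperature) of the 4 genes (solid) and of Bra008920 and Bra027999, the other copies of BrHSP17.6II and BrHSP22 (dotted). Dashed lines mark 2-fold. The ratios of BrHSP21 and BrHSP17.6II start at 6.83 and 17.58 and end at 0.83 and 0.81, that of BrHSP22 goes through 1.15, 2.75 and 3.70, and that of BrHSP98.7 stays between 1.79 and 2.07.

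The difference between the lines in their change by temperature, the log2 ratio in Kenshin minus that in Chiifu, put these patterns on a single scale. It has no error here, and its size was ranked among the 26948 background genes. For LT it was -4.40 for BrHSP21 (rank 35) and -3.94 for BrHSP17.6II (rank 64), or -2.98 and -3.07 with 50 added. The share of background genes larger in size was 0.13% and 0.23% as deposited, and 0.39% and 0.35% with 50 added. The difference for LT was 1.26 for BrHSP22, with 8.32% of the background genes larger in size. For BrHSP98.7 it was -0.19, with 69.6% larger.

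For minor warming the difference was -4.44 for BrHSP17.6II (rank 83) and -3.05 for BrHSP21 (rank 353), or -3.53 and -2.17 with 50 added. The share of background genes larger in size was 0.30% and 1.31% as deposited, and 0.42% and 2.92% with 50 added. Minor warming and LT share the 22 °C samples. The difference for minor warming was 1.69 for BrHSP22 and -0.21 for BrHSP98.7. For warming it was smaller in size for each of the 4 genes, with 1.35 for BrHSP21, -0.50 for BrHSP17.6II, 0.43 for BrHSP22 and -0.01 for BrHSP98.7. The change of BrHSP98.7 by warming was therefore nearly the same size in both lines, and 98.1% of the background genes differed more.

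**Figure D4:**
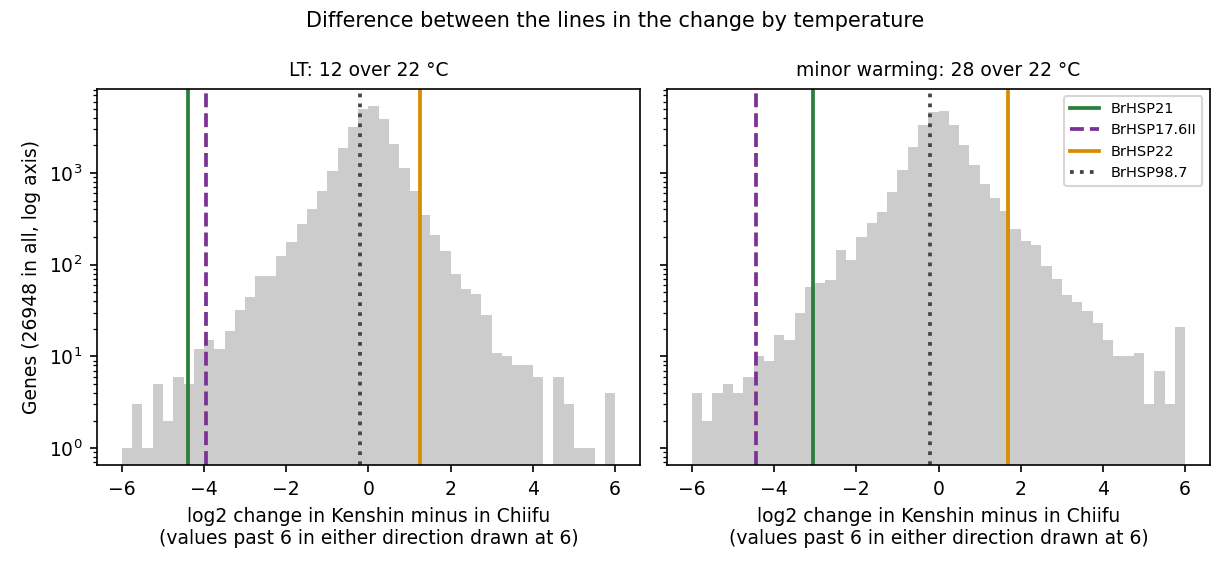
Distribution over 26948 genes (log axis) of the log2 change in Kenshin minus the log2 change in Chiifu for LT and for minor warming, with the 4 genes as vertical lines. BrHSP21 and BrHSP17.6II lie in the left tail in both panels (-4.40 and -3.94 for LT), BrHSP98.7 lies near 0 and BrHSP22 to the right of it.

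Changes shared by the lines could be tested only by taking the lines as the repeats of a temperature, or the temperatures as the repeats of a line. This was done for all 26948 genes with limma on log2 PI, with an effect for line and for temperature. The error of that fit is the disagreement of the lines over the temperatures, not that of replicate plants, so genes whose lines disagree have wide errors.

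For the Kenshin minus Chiifu difference shared by the 3 temperatures, limma called 1768 genes at an adjusted p under 0.05 (6.56%), 599 of them higher in Kenshin. BrHSP98.7 (Bra007816) was called, with a log2 difference of 0.91 ± 0.15 (SE, adjusted p = 0.0440), higher in Kenshin in 3 of 3 pairs. The call is narrow, since it was lost in 5 of the 7 alternative settings, with adjusted p between 0.0505 and 0.337. BrHSP22 (Bra000703) had 1.18 ± 0.37 (SE, limma adjusted p = 0.174), in the same direction in 3 of 3 pairs. BrHSP17.6II (Bra006137) had 1.34 ± 0.96 (limma adjusted p = 0.499) and BrHSP21 (Bra026317) 0.29 ± 0.89 (limma adjusted p = 0.893). Both errors were large, and the sign of the line difference of both genes changed with temperature.

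For temperature, limma called 0% of the genes for warming, 0% for minor warming and 0% for LT. At an unadjusted p under 0.05 there were 4965, 4297 and 3429 genes in these 3 comparisons. For warming the log2 change was 2.96 ± 1.18 for BrHSP17.6II (Bra006137) and 2.81 ± 1.09 for BrHSP21 (Bra026317), with limma adjusted p of 0.291 and 0.284. It was 0.94 ± 0.18 for BrHSP98.7 (Bra007816) and 0.85 ± 0.45 for BrHSP22 (Bra000703), with limma adjusted p of 0.130 and 0.392. BrHSP98.7 had the smallest error of the 4 and also a small change. None of the 4 genes passed for any temperature comparison in this fit or in its alternatives, and the lowest adjusted p among these was 0.108, for BrHSP98.7 by warming.

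BrHSP17.6II and BrHSP22 each have another listed copy with the same Arabidopsis counterpart, and neither copy had the pattern of its partner. Bra008920, the other copy of HSP17.6II, had a PI of 1267 (22 °C), 1426 (12 °C) and 3693 (28 °C) in Kenshin. In Chiifu it had 3065, 1599 and 5017 at these steps. It was higher in Chiifu at all 3 temperatures, with a Kenshin over Chiifu ratio of 0.41 at 22 °C where BrHSP17.6II had 17.58. Its ratio for LT was 1.13 in Kenshin and 0.52 in Chiifu, the reverse of the directions of BrHSP17.6II. Warming gave 2.59 in Kenshin and 3.14 in Chiifu.

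Bra027999, the other copy of HSP22, was dim, with 85.4 (22 °C), 37.4 (12 °C) and 677 (28 °C) in Kenshin. In Chiifu it had 26.8, 71.3 and 378, and only 1 of its 6 values lay over 500. Its ratio for LT was 0.44 in Kenshin and 2.66 in Chiifu, and for warming 18.1 in Kenshin and 5.30 in Chiifu. With 50 added, the LT ratios were 0.65 and 1.58, no longer past 2-fold, and those for warming 8.31 and 3.53. The directions were those of BrHSP21 in both lines, while those of BrHSP22 for LT were the reverse. Probes of near-identical copies can share signal, which was not examined here.

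Seen by compartment, the mitochondrial small heat shock proteins did not follow the mitochondrial disaggregase. Bra013872 (BrHSP23.6-MITO) had a PI of 984, 265 and 3551 at 22, 12 and 28 °C in Kenshin and of 333, 323 and 1308 in Chiifu. Bra029174 (BrHSP20-L) had 1657, 292 and 7627 in Kenshin and 406, 376 and 5772 in Chiifu. Their warming ratios were 13.4 and 26.1 in Kenshin and 4.05 and 15.3 in Chiifu, where BrHSP98.7 stayed at 1.91 and 1.93. Like BrHSP21 and BrHSP17.6II they were dimmer at 12 than at 22 °C in Kenshin, at 0.27 and 0.18, but they were nearly level in Chiifu, at 0.97 and 0.93.

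Among 10 other small heat shock protein genes of the cytosol, 7 passed the 2-fold cutoff for warming in both lines (background 3.1%), with a median ratio of 4.41 in Kenshin and 3.08 in Chiifu. Bra002539, Bra020295 and Bra006697 among the 7 share the Arabidopsis counterpart AT5G59720. The study named the 10 genes with these samples in view, so the count of 7 is a description and no independent evidence. The median over all background genes was 1.003 in Kenshin and 1.03 in Chiifu. BrHSP17.6II was above both medians, at 6.57 in Kenshin and 9.28 in Chiifu. For LT, 6 of these 10 genes had opposite directions in the lines, where 37.3% of the background genes did. Of these, 4 were lower in Kenshin and higher in Chiifu as BrHSP17.6II was, where 16.6% of the background genes were. Bra018383, Bra018384 and Bra031725 among the 4 share the Arabidopsis counterpart AT2G29500, so the 4 are not independent genes. The nearest in size to BrHSP17.6II was Bra002539 (BrHSP18.2A), at 0.28 in Kenshin and 3.53 in Chiifu (0.42 and 2.51 with 50 added).

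The LT ratio of BrHSP22, past 2-fold in Kenshin and under it in Chiifu, had its like among the 5 small heat shock protein genes without an assigned compartment. Of these, 4 were at least 2-fold brighter at 12 than at 22 °C in Kenshin (background 5.8%) and 0 in Chiifu (background 5.36%), with median ratios of 2.15 in Kenshin and 1.07 in Chiifu over the 5. The 4 genes, Bra022051, Bra022079, Bra022083 and Bra022084, share the Arabidopsis counterpart AT5G47590. They are thus not independent genes to set against the background, and shared probe signal was not examined. Bra022051 had 3.15 in Kenshin and 1.39 in Chiifu. The median ratio of the 5 genes for warming was 0.97 in Kenshin, whereas BrHSP22 was at 2.09.

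By size class, the 2 other ClpB/HSP100 genes, both BrHSP101 of the cytosol, differed in how near they lay to BrHSP98.7. Bra015922, the nearer, had a PI of 5409, 5601 and 8821 at 22, 12 and 28 °C in Kenshin and of 2725, 3674 and 6053 in Chiifu. Its warming ratio was 1.57 in Kenshin and 1.65 in Chiifu, and its Kenshin over Chiifu ratio 1.98, 1.52 and 1.46 at 22, 12 and 28 °C. Bra003807 had warming ratios of 1.61 in Kenshin and 2.45 in Chiifu and Kenshin over Chiifu ratios of 1.16, 1.59 and 1.04 at 22, 12 and 28 °C, where BrHSP98.7 had 2.07, 1.81 and 1.79. The 18 other small heat shock protein genes had median warming ratios of 3.34 in Kenshin and 3.08 in Chiifu, and 11 of them passed the cutoff in both lines (background 3.1%). The study named the 18 with these samples in view, and several share an Arabidopsis counterpart. The count of 11 is therefore a description and no independent evidence.

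Over all 27 other listed heat shock genes that reached a PI of 500, 15 passed the cutoff for warming in both lines (background 3.1%), and 15 for minor warming (background 1.57%). For LT, 1 passed upward (background 2.05%) and 2 downward (background 2.52%) in both lines, counts too small to be compared with these shares. At 22 °C 14 of the 27 were at least 2-fold higher in Kenshin (background 8.55%), and the median ratio was 2.14. This list was put together from genes that the study had named with these samples in view, so its counts are no independent evidence of a direction.

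**Figure D5:**
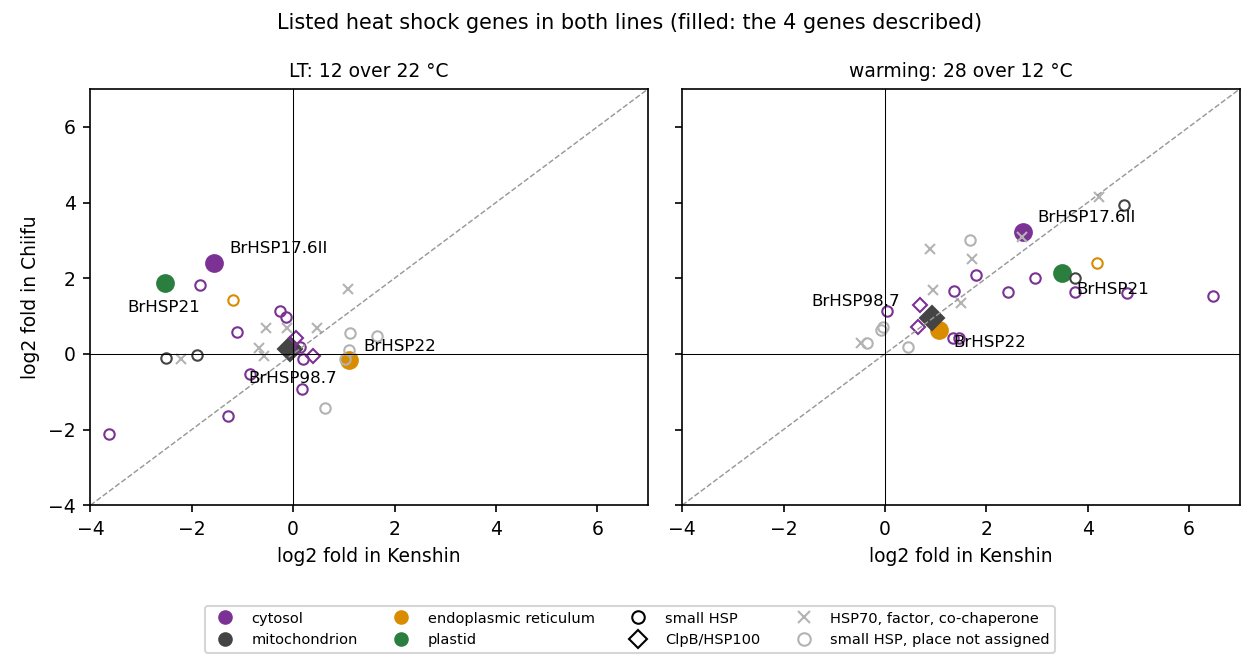
Log2 ratio in Kenshin (horizontal) and Chiifu (vertical) of the 4 genes (filled) and the 27 other listed heat shock genes (open or crosses) for LT and for warming, 1 sample per line and temperature, coloured by the compartment of the Arabidopsis counterpart. The dashed diagonal marks equal changes. For LT, BrHSP21 and BrHSP17.6II lie in the upper left quadrant, lower in Kenshin and higher in Chiifu, and for warming BrHSP98.7 lies on the diagonal.

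The genes whose pattern over the 6 samples was nearest to each of the 4 were found among the other background genes by the root mean square difference of log2 PI, each gene centred on its own mean. The samples are few and share their temperatures and lines, so likeness is a description. For BrHSP21 the nearest were Bra038442 (0.57, r = 0.934 over 6 samples) and Bra037007 (0.62, r = 0.927). Bra027999, the dim copy of HSP22, was rank 3 with 0.62. For BrHSP17.6II they were Bra020906 (0.74, r = 0.945) and again Bra037007 (0.76, r = 0.921), and BrHSFA2 (Bra000557, a heat shock factor) was rank 6 with 0.87.

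Bra037007, which is near both, had a PI of 1179 (22 °C), 133 (12 °C) and 676 (28 °C) in Kenshin. In Chiifu it had 71.1, 196 and 1478. It was thus brightest at 22 °C in Kenshin, unlike BrHSP21 and BrHSP17.6II, and shared their Chiifu pattern.

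The genes nearest to BrHSP22 and BrHSP98.7 were closer in size. For BrHSP22 they were Bra003699 (0.22, r = 0.986) and Bra003431 (0.24, r = 0.966), and the nearest listed heat shock gene, Bra022079, was only rank 141. For BrHSP98.7 they were Bra039881 (0.08, r = 0.994) and Bra006019 (0.09, r = 0.990). The BrHSP101 gene Bra015922 was rank 7 of 26944 genes for BrHSP98.7, with 0.16. Genes with a narrow range have small differences by construction, so these values do not order the 4 genes.

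Among the 4 themselves, BrHSP21 and BrHSP17.6II differed by 0.77 in this measure (r = 0.924 over 6 samples) and BrHSP22 and BrHSP98.7 by 0.47 (r = 0.858). Across these pairs the differences ran from 1.23 to 1.67, with r from 0.304 to 0.831.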

How the data were processed

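RNA of the 6 samples was labelled with Cy3 and hybridized to the Br135K microarray, which carries short probes tiled near the 3′ end of each gene model. The authors combined each gene's probes into 1 number, and what they deposited is a linear intensity for each of 41173 genes and 15 features that serve as controls. The submitters' processing notes name RMA, a background correction, quantile normalization and summarization, with no version. The nearly equal quartiles of the samples mean that a shift common to most genes would not be seen. The paper speaks of means of repeated experiments, whereas the labels give 1 sample per line and temperature. All 6 columns matched a label, and 0 columns were left out.

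Intensities were used as deposited. Ratios had nothing added unless stated. The shared changes were fitted in R 4.3.3 by limma 3.58.1 (log2 intensity, lmFit, then eBayes, effects of line and temperature, 2 residual and 2.36 prior degrees of freedom, Benjamini-Hochberg adjustment over 26948 genes). The fit and the search for like patterns were tested on simulated data. Other steps ran in Python 3.11.15 (matplotlib 3.10.9, numpy 2.4.6, pandas 2.3.3). The alternatives were 50 added to each intensity, quantile normalization, scaling to the same median, fold cutoffs of 3 and 1.5, intensity minimums of 1000 and none, no block for the other factor, and a mean-variance trend.

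The genes named are the 4 genes, other copies of their counterparts, listed heat shock genes of the same compartment or size class, BrACT2, and the 2 genes nearest in pattern to each of the 4. Other listed genes were added as the nearest listed gene or as examples of a group, after their values were seen. The 4 genes and the lists were chosen with earlier results of these data known. The reference annotation used here holds other gene IDs, so unnamed genes are given by ID. A further treatment at a higher temperature and the RT-PCR experiments were not analysed here.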

Additional observations from a re-analysis of the deposited data

Results flagged for a closer look

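The change at the low temperature ran in opposite directions in the lines for each of the 4 genes. This difference was not tested, since the labels give 1 sample per line and temperature. The log2 change in Kenshin minus that in Chiifu was -4.40 for BrHSP21, -3.94 for BrHSP17.6II, 1.26 for BrHSP22 and -0.19 for BrHSP98.7. The changes of BrHSP98.7 were 0.95-fold in Kenshin and 1.09-fold in Chiifu, and opposite directions of any size were found for 37.3% of the 26948 genes.

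Of the 14 features for the transgene markers sGFP and Bar, which enter no comparison, 12 read above the random-sequence feature in all 6 samples and 2 read below it in all 6. The brightest read 1517, in Chiifu at 28 °C, where the random feature read 30.5. An antisense marker feature was 5.65-fold higher at 28 than at 12 °C in Kenshin, with 1083 at 28 °C and 192 at 12 °C. The median ratio over the 14 features in that comparison was 0.96. The part of such signal in the values of BrHSP21 and in the dim values of BrHSP17.6II was not tested.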

How the results depend on the processing

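Of 144 ratios and line differences of the 4 genes under 50 added, quantile normalization and median scaling, 132 moved by no more than 1.5-fold, 12 moved further and all 12 were BrHSP21 or BrHSP17.6II values with 50 added. The sign changed for 1 value, the near-zero warming difference of BrHSP98.7 (-0.01 as deposited, 0.01 with 50 added). With a cutoff of 1.5, the count of genes past it in both lines was 4 for warming and 3 for minor warming, against 2 and 1 at 2-fold, and with a cutoff of 3 it was 0 for minor warming. Genes higher in Kenshin than in Chiifu numbered 2 at 12 °C and 2 at 28 °C with a cutoff of 1.5, against 1 and 1 at 2-fold, and 0 at 12 °C with a cutoff of 3. Background shares at the cutoffs of 1.5 and 3 were not computed, so these counts have no share to be set against. In limma, the mean-variance trend gave 50 calls for LT, 460 for warming and 3 for minor warming, none of them among the 4 genes, where the fit reported gave 0. Without an intensity minimum, limma made 1091 calls for Kenshin minus Chiifu, against 1768. The call of BrHSP98.7 for Kenshin minus Chiifu was lost under quantile normalization (adjusted p = 0.0505), median scaling (0.0517), the trend (0.0679), no intensity minimum (0.103) and no block (0.337), and the causes were not tested. With a minimum of 1000, BrHSP21 was not fitted. Samples could not be paired by replicate number, since the labels give none, and the blocks of the limma fit were line and temperature. Dim values limit BrHSP21 most, whose lowest PI was 45.3 with the random feature at 26.9 to 30.5.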

Other observations

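Among the listed heat shock genes outside the small and ClpB/HSP100 classes, 4 heat shock factors and co-chaperones reached the intensity minimum. All 4 passed 2-fold for warming in both lines (background 3.1%), with median ratios of 4.90 in Kenshin and 7.06 in Chiifu. The listed co-chaperone BrROF1 (Bra013224) did not reach that minimum, with a highest PI of 59.1, and is not in these counts. Its dim values gave warming ratios of 0.67 in Kenshin and 2.38 in Chiifu. The Kenshin over Chiifu ratio of BrROF1 at 22 °C was 1.31. The 3 HSP70 genes had median warming ratios of 1.86 in Kenshin and 3.22 in Chiifu, and 0 of them passed in both lines, where 3.1% of the background did. At 22 °C all of the 4 factors and co-chaperones had a Kenshin over Chiifu ratio of at least 2 (background 8.55%), with a median ratio of 3.03. BrHSP21, BrHSP17.6II and BrHSP98.7 among the genes described had such a ratio too. Of the HSP70 genes, Bra001457 and Bra038734 had ratios of 6.26 and 6.18 at 22 °C, and Bra038496 had 1.30. The study listed the 4 factors and co-chaperones from these same samples for a higher level in Kenshin at 22 °C and a higher level after warming. Their counts on both points are therefore a description and no independent evidence. At 28 °C 0 of the 4 factors and co-chaperones had a ratio of at least 2 (background 10.3%), with a median ratio of 1.36.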
